A study of Mus musculus with 6 samples.

Results

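The CC chemokine genes Ccl3, Ccl4, Ccl5, Ccl6, Ccl9 and Ccl17, and the receptor gene Ccr1 were followed through single-cell RNA sequencing of obstructed mouse kidneys. The 7 genes were taken by symbol from the 31276 genes counted, and all 7 were found. Kidneys came from C57BL/6 mice, 7 days after unilateral ureteral obstruction, a ligation of 1 ureter that causes inflammation and fibrosis of the kidney on that side. The compound SH045, tied in the title of the series to TRPC6 inhibition, had been given to 3 mice, and Vehicle alone to 3 mice. No source used here gives dose, age or sex. All 6 mice had the surgery, so every contrast below is SH045 against Vehicle within the injured kidney. Contralateral control kidneys and spatial samples of the series were not analysed here.

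CC chemokines are small secreted proteins that draw leukocytes along a gradient by binding G-protein-coupled receptors on them. CCL3, CCL5, CCL6 and CCL9 are ligands of CCR1, and CCL17 is a ligand of CCR4. In the obstructed kidney such signals are known for bringing monocytes, T cells and dendritic cells into the tissue between the tubules, and CCR1 is carried by monocytes, macrophages and neutrophils.

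Of 25978 barcodes, 23578 were kept, 11030 from SH045 kidneys and 12548 from Vehicle kidneys. Total counts of unique molecular identifiers (UMIs, each marking 1 captured transcript) were 21186872 to 24786650 per SH045 library and 21271281 to 32256602 per Vehicle library. Barcodes dropped for more than 50% mitochondrial UMIs were 10.3% to 16.5% of SH045 libraries and 3.56% to 5.29% of Vehicle libraries. The libraries shared 178 of 23400 distinct barcodes. Each cell was assigned to 1 of 23 classes from marker genes that included no CC chemokine or receptor, and 4.74% of cells reached no class. The gates followed their markers: C1qa, a complement gene of macrophages, and Fn1, the fibronectin gene, stood at 3851 and 90.1 CPM (UMIs of the gene scaled to 1000000 UMIs of the summed cells) in macrophages outside the Fn1-type subset. In the Fn1-type subset, cells of the macrophage or cDC2 gate with at least 2 of 8 further markers such as Fn1, Arg1 and Chil3, C1qa stood at 1088 CPM and Fn1 at 1708 CPM. Its leading genes included Arg1, F10, Retnla and Fn1. The Fn1-type subset was 2.19 ± 0.547% of cells in SH045 kidneys and 5.90 ± 1.22% in Vehicle kidneys (SD, n = 3 each), and dendritic cells were 6.59 ± 0.951% and 14 ± 0.879% of cells in SH045 and Vehicle kidneys.

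Ccl5, Ccl9, Ccl6, Ccl3 and Ccl4 lie within a stretch of chromosome 11, where the annotation (GENCODE, GRCm38/mm10) places them in that order, Ccl5 at chr11:83525778-83530518, Ccl9 at chr11:83572919-83578636, Ccl6 at chr11:83587882-83593087 and Ccl3 at chr11:83647844-83649355 on the minus strand, and Ccl4 at chr11:83662584-83664683 on the plus strand. Ccl17 is at chr8:94810453-94812036 on the plus strand and Ccr1 at chr9:123962124-123968692 on the minus strand. All 7 are protein coding. Ccl6 is overlapped on the other strand by E230016K23Rik, and whether counting used strand was not given in the sources used here, so reads of the pair cannot be told apart where they overlap. E230016K23Rik had 28 to 57 UMIs per SH045 library and 118 to 198 per Vehicle library, against 4329 to 10599 and 21417 to 32320 UMIs of Ccl6.

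Ccl6 and Ccl9 are neighbours whose counts were lower together in SH045 kidneys, so their promoters are shown, from 250 bases before to 50 bases after the gene start, both on the minus strand of chromosome 11 (RefSeq, GRCm38.p6). Capitals mark the stretch over which the windows align, 67 aligned positions of which 58 are identical (86.6%), with 2 gaps. Relative to the gene start it runs from -59 to 15 in Ccl6 and from -18 to 49 in Ccl9. In Ccl9 most of it therefore lies after the gene start.
Ccl6 (chr11:83593038-83593337): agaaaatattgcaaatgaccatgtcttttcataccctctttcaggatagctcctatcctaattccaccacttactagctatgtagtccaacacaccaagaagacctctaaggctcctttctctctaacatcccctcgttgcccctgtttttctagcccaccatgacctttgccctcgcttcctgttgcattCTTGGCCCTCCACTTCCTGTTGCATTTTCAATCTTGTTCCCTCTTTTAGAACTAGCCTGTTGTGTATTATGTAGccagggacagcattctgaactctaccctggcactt
Ccl9 (chr11:83578587-83578886): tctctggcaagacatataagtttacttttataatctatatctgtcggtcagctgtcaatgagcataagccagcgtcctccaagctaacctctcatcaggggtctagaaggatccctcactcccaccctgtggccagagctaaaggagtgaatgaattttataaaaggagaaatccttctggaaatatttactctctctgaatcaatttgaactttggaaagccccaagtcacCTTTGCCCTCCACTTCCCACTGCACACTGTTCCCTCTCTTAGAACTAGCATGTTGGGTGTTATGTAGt
The aligned stretch holds, in both genes, the letters ACTTCC, which read GGAAGT on the other strand, the core bound by ETS factors such as PU.1. They begin at -48 in Ccl6 and at -7 in Ccl9. Of 32544 distinct promoter windows of the same length, 23.7% hold GGAAGT on either strand. The same letters stood in the window of Ccl3. The AP-1 letters TGANTCA (7.79% of all windows, either strand) were in the window of Ccl9 and not in that of Ccl6. The C/EBP letters TTGCNNAA, held by 10.8% of windows, were in neither. Promoters of Ccl3, Ccl17 and Ccr1 were also matched, 5 of the 7 genes in all, and none of them aligned with another over more than 16 positions.

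The genes had different homes in the injured kidney. Ccl6 and Ccl9, which encode ligands of CCR1 made by myeloid cells, were highest in Fn1-type cells among classes with at least 20 cells, at 5409 ± 2050.1 CPM for Ccl6 and 1189.9 ± 289 CPM for Ccl9 (SD over the 6 libraries). Fn1-type cells held 45.2% of all Ccl6 UMIs and 34.8% of all Ccl9 UMIs, with 5.40% of all UMIs of the kept cells. Ccl3 and Ccl4, inflammatory chemokines of activated macrophages and killer lymphocytes, came mostly from macrophages outside that subset, which gave 74.1% of Ccl3 UMIs, 66.8% of Ccl4 UMIs and 66.4% of Ccr1 UMIs and held 25.0% of all UMIs.

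Ccl17, which attracts T cells that carry CCR4, was highest in migratory dendritic cells (1298 ± 528 CPM) and in cells of the cDC2 gate (1252 ± 543 CPM), levels that did not differ beyond their spread over the 6 libraries. Outside these gates, 17.1% of its UMIs were in cells with no class. Ccl5, the product of activated T and NK cells, averaged 11946 ± 5945 CPM in NK cells, 7400.3 ± 2775 CPM in migratory dendritic cells and 3846 ± 1787 CPM in T cells, neighbours in the order whose ranges met. Macrophages outside the Fn1-type subset came next among large classes with 415 ± 94.7 CPM, and injured tubule cells had 365 ± 166 CPM. Ccr1 was highest in granulocytes at 375 ± 152 CPM, from 85 UMIs, and stood at 137 ± 69.3 CPM in Fn1-type cells and 93.0 ± 17.3 CPM in other macrophages. Those other macrophages pool subsets with unlike shares of cells with Ccr1, given below.

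**Figure D1:**
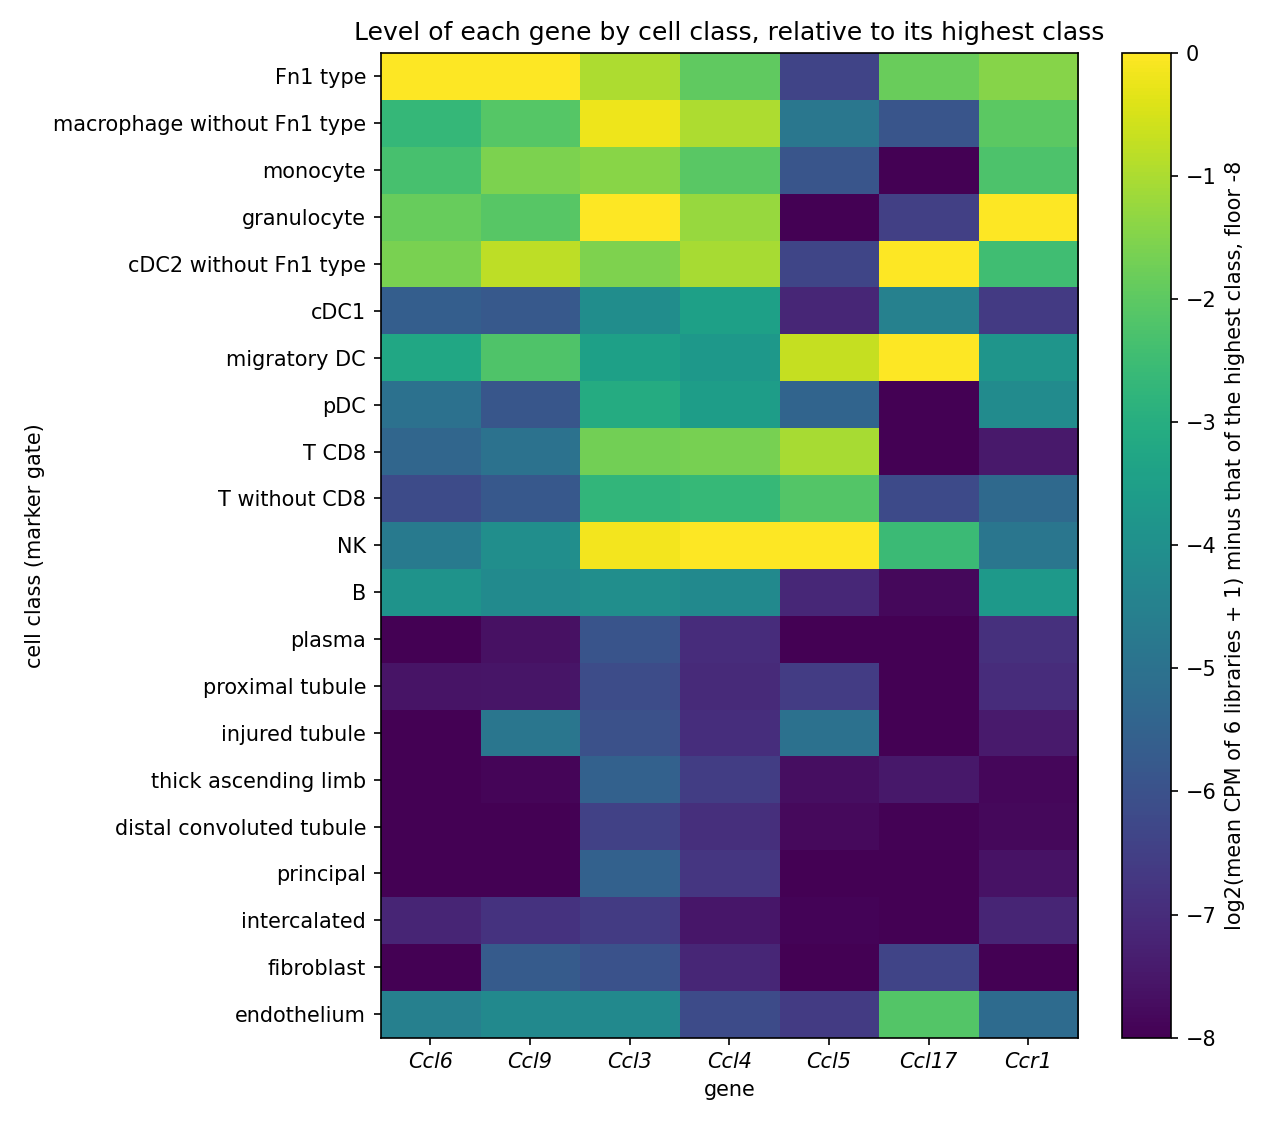
Colour gives the level of each gene (columns) in each cell class (rows), as log2(mean CPM of the 6 libraries + 1) minus the value in the class where that gene is highest, with a floor at -8. Ccl6 and Ccl9 peak in Fn1-type cells, Ccl5 in NK cells, migratory dendritic cells and CD8 T cells, and Ccl17 in migratory dendritic and cDC2 cells.

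Across classes, Ccl3 and Ccl4 followed each other most closely (Pearson r = 0.969 of log2(CPM + 1) over 21 classes), and each was the closest to the other of 12046 genes. Next came Cd84 for both (r = 0.942 with Ccl3 and 0.951 with Ccl4), then Fcer1g for Ccl3 (r = 0.940) and Arrb2 for Ccl4 (r = 0.949). The genes closest to Ccl6 were Clec7a, which encodes the beta-glucan receptor Dectin-1 (r = 0.963), Wfdc17 (r = 0.959) and Lilr4b (r = 0.956), while Ccl6 (r = 0.913) and Wfdc17 (r = 0.905) were among the genes closest to Ccl9. Ccr1 was closest to Cd300ld (r = 0.965), Clec4n (r = 0.946) and Ccl6 (r = 0.943). Ccl17 was closest to Dcstamp (r = 0.844), Ccl22 (r = 0.830), the other ligand gene of CCR4, and Fndc7 (r = 0.830). Ccl5 was closest to AW112010 (r = 0.844), Plgrkt (r = 0.840) and Il2ra (r = 0.819). These are descriptions over classes that share the same 6 libraries.

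Within classes the pairs were also found in the same cells. Among Fn1-type cells with a UMI of Ccl6, 77.1% to 95.2% by library also had a UMI of Ccl9, against 10% to 66.7% of Fn1-type cells without Ccl6. Among macrophages with a UMI of Ccl3, 53.9% to 84.1% had a UMI of Ccl4, against 19.1% to 47.7% of the others. Cells with more UMIs show more of every gene, and these shares were not thinned to equal depth. Ccl5 in macrophages was held by few cells: the 10% of macrophages with most Ccl5 carried 83.1% to 94.7% of its macrophage UMIs by library, against 46.4% to 55.8% for the same share of T cells.

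When all kept cells of a kidney were summed, 4 of the 7 genes were lower in SH045 kidneys, Ccl6, Ccl9, Ccl17 and Ccl4, and none was higher (edgeR quasi-likelihood test, Benjamini-Hochberg adjusted p below 0.05). In the same fit 4.31% of 16532 genes passed in either direction and 1.36% were lower. Ccl6 was at 221, 462 and 283 CPM in SH045 kidneys, against 1090.3, 1039.7 and 1196.5 CPM in Vehicle kidneys. The groups stood apart, and the change was -2.01 ± 0.287 on the log2 scale (SE, adjusted p = 0.0149). Ccl9 was at 116, 142 and 118 CPM in SH045 kidneys and 246, 255 and 291 CPM in Vehicle kidneys, again with no overlap, a change of -1.31 ± 0.143 (adjusted p = 0.00721).

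Ccl17 was at 54.1, 78.7 and 92.4 CPM in SH045 kidneys, against 222, 136 and 143 CPM in Vehicle kidneys. Every SH045 value lay under every Vehicle value, and the log2 change was -1.39 ± 0.279 (adjusted p = 0.0398). Ccl4 was at 157, 133 and 95.2 CPM in SH045 kidneys and 191, 273 and 179 CPM in Vehicle kidneys, apart by a narrow gap, with a log2 change of -0.98 ± 0.211 (adjusted p = 0.0454). Ccl17 and Ccl4 lost the call without any 1 of the 6 libraries (adjusted p 0.0525 to 0.127 and 0.0629 to 0.107). Their calls also ended when a trend of each library on transcript length was removed (adjusted p = 0.0554 for Ccl17 and 0.129 for Ccl4). Across genes the log2 change followed transcript length with a Spearman correlation of 0.431.

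Ccl3, Ccl5 and Ccr1 did not pass with edgeR. DESeq2 called 5 of the 7, Ccl3 with them (adjusted p = 0.0278), where 11.9% of genes passed. Ccl3 was at 88.7, 56.3 and 37.8 CPM in SH045 kidneys and 91.3, 106 and 75.4 CPM in Vehicle kidneys, groups that overlapped (log2 change -0.83 ± 0.270, adjusted p = 0.111). Ccl5 was at 445, 379.6 and 534 CPM in SH045 kidneys and 421, 241 and 644 CPM in Vehicle kidneys, the SH045 values lying within the Vehicle range (adjusted p = 0.760). Ccr1 was at 29.8, 22.9 and 52.1 CPM in SH045 kidneys and 43.9, 29.7 and 36.8 CPM in Vehicle kidneys, fully overlapping (adjusted p = 0.563). In such sums, fewer cells of a type and less RNA per cell cannot be told apart, so each class was then summed by itself.

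**Figure D2:**
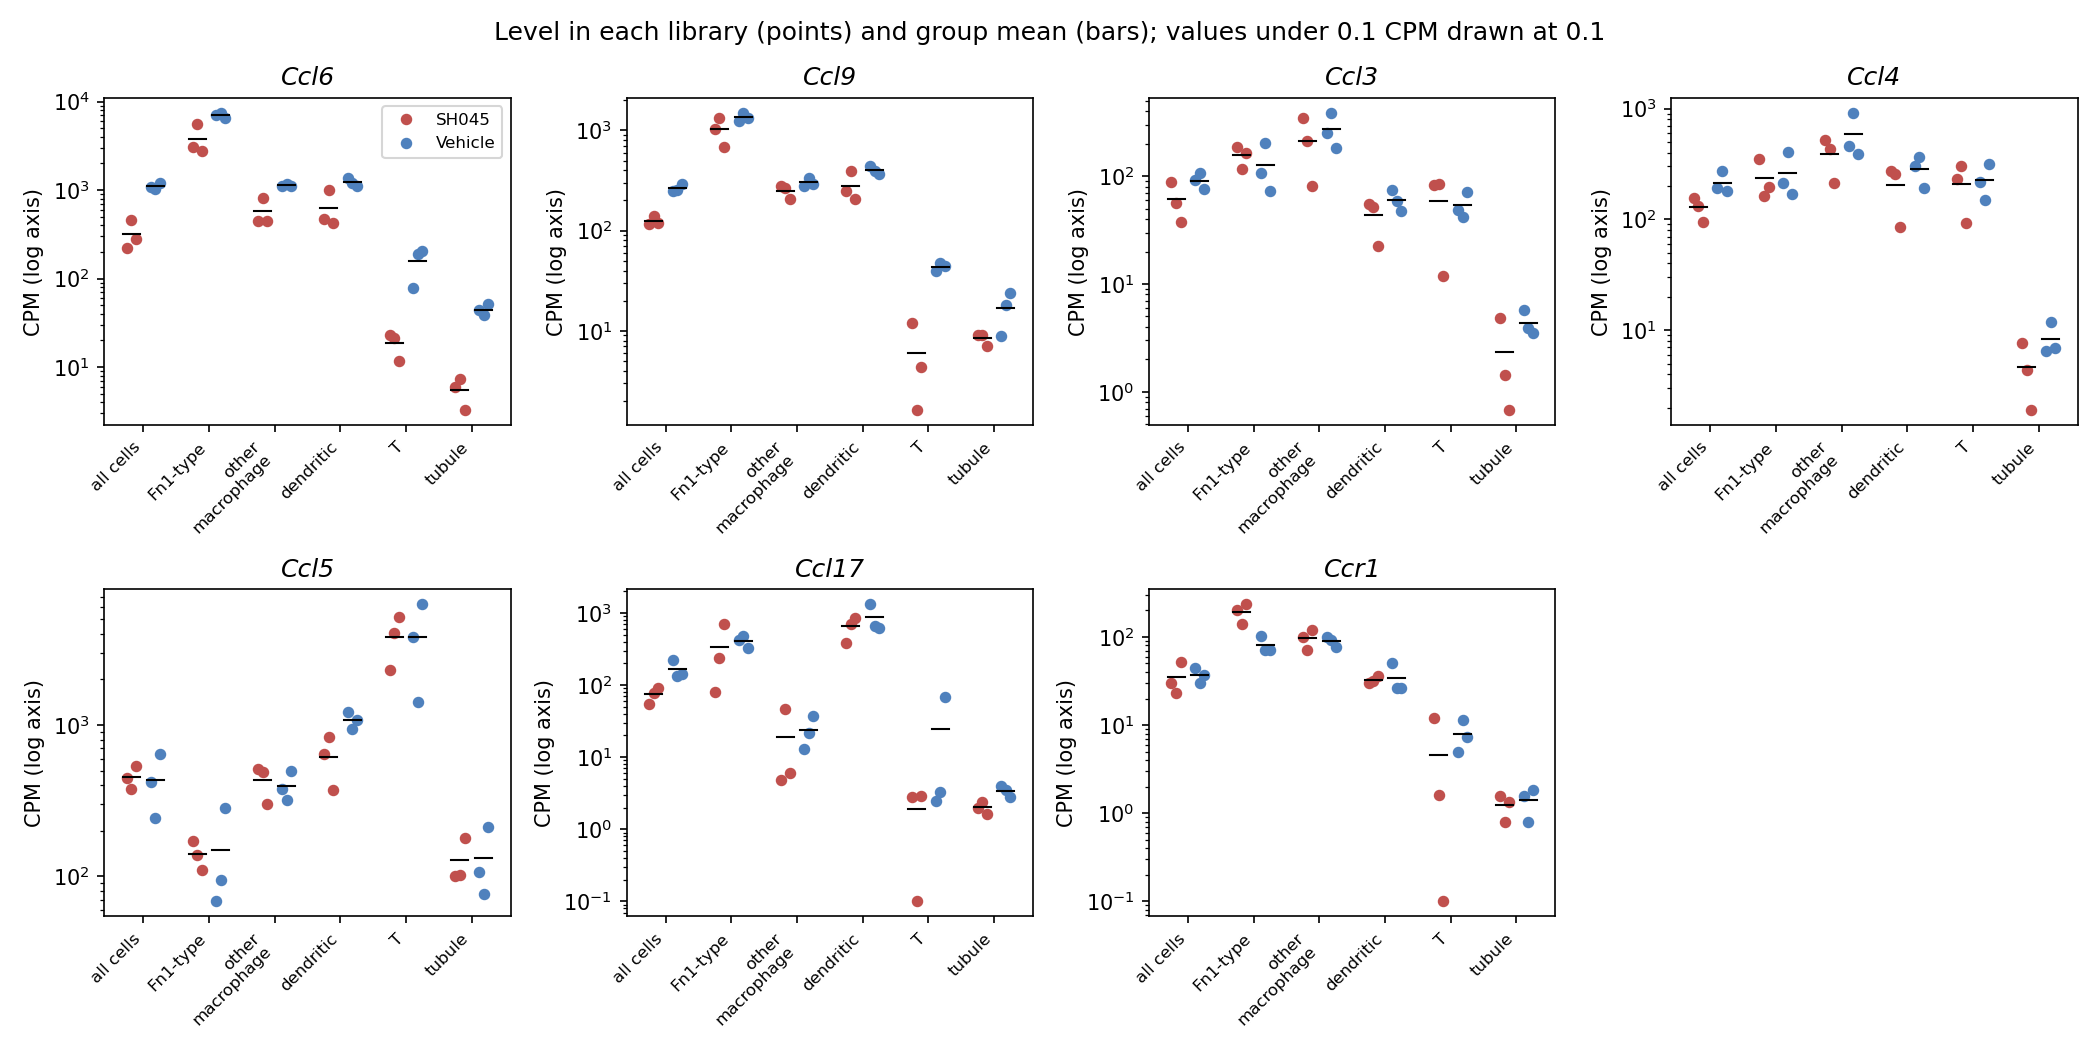
Points are single libraries and short bars are group means, in CPM on a log axis, for each gene in 6 sets of cells, SH045 left of Vehicle, with "dendritic" and "other macrophage" drawn without the Fn1-type subset. Ccl6 stands apart between the groups in every set drawn, while Ccr1 stands apart in Fn1-type cells alone of those drawn.

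Splitting each library's level by the class that carried it showed where the difference lay under these gates. The Fn1-type rule counts detected markers, and its cells had median depths of 5590 UMIs in SH045 kidneys and 7414 UMIs in Vehicle kidneys. When cells were clustered, 55.1% of Fn1-type cells fell in the same cluster. The part of depth in the split was not tested. Fn1-type cells contributed 98.5 ± 51.0 of the Ccl6 CPM of SH045 kidneys and 531 ± 73.0 of those of Vehicle kidneys, 55.0% of the whole difference between the groups. Other macrophages contributed 136 ± 48.6 and 296 ± 53.7 Ccl6 CPM in SH045 and Vehicle kidneys, 20.4% of the difference. For Ccl9, Fn1-type cells carried 55.4% of the difference, with 26.5 ± 11.2 CPM in SH045 kidneys and 103 ± 21.1 CPM in Vehicle kidneys. For Ccl17, cells of the cDC2 gate outside the Fn1-type subset carried 54.8% of the difference, with 32.4 ± 22.2 CPM in SH045 kidneys and 82.7 ± 45.7 CPM in Vehicle kidneys. For Ccl4, macrophages outside the subset carried 67.3%, with 85.3 ± 9.42 CPM in SH045 kidneys and 143 ± 36.2 CPM in Vehicle kidneys.

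**Figure D3:**
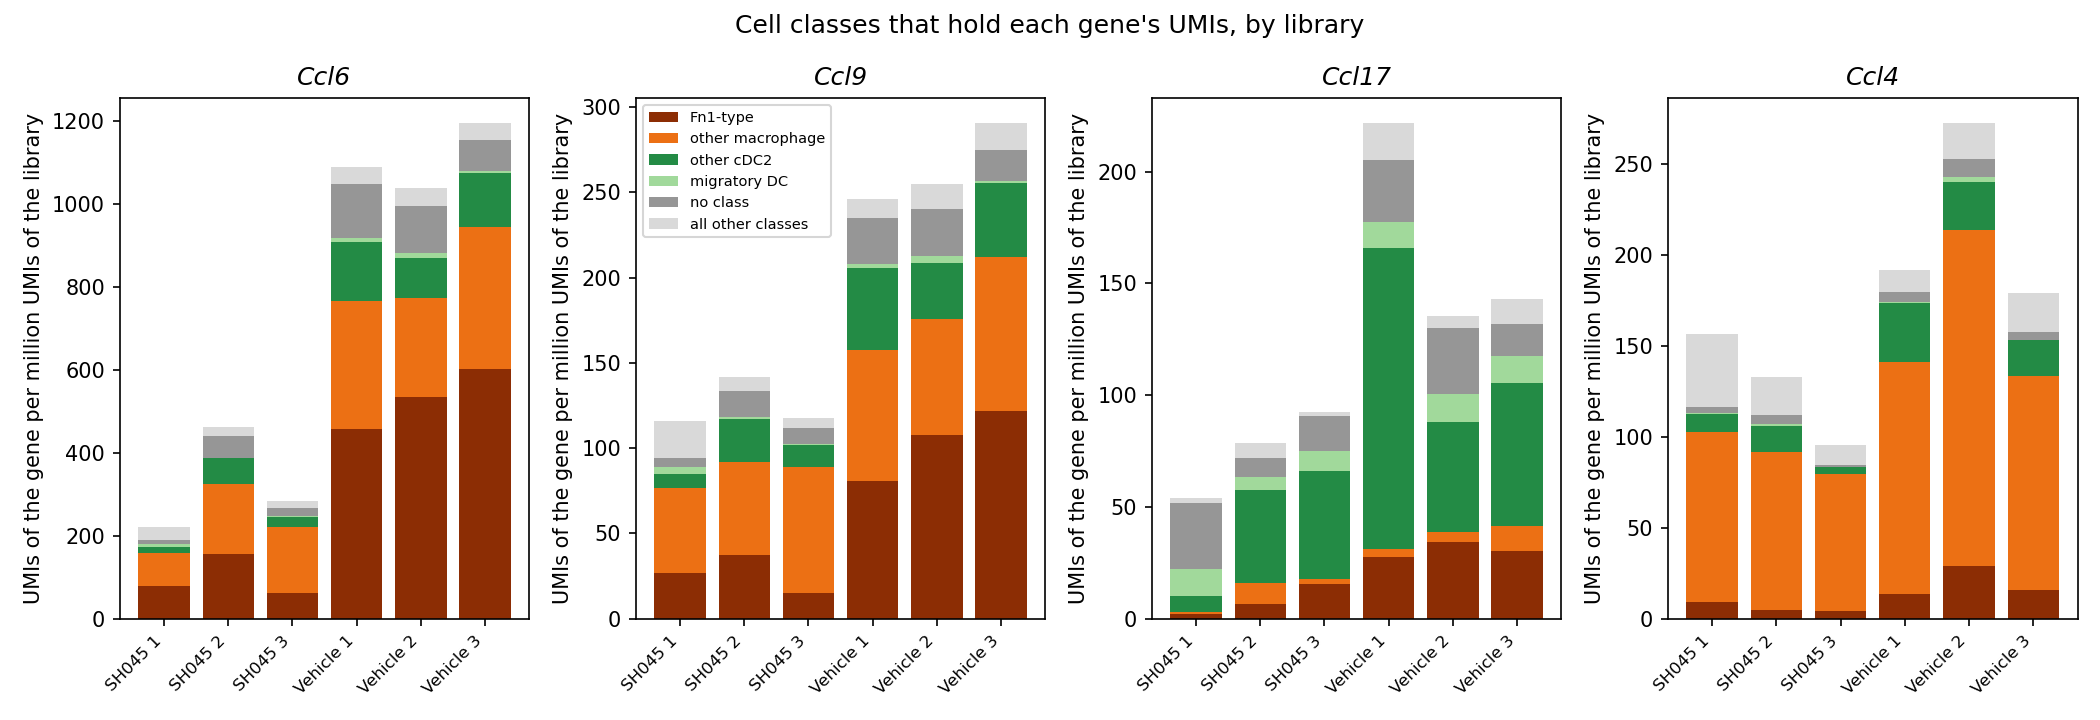
Each bar is 1 library, its height the level of the gene in CPM of the whole library, split by the cell class that held the UMIs (colours), for Ccl6, Ccl9, Ccl17 and Ccl4. The dark Fn1-type share of Ccl6 is 60.7 to 156 CPM in SH045 kidneys and 456 to 602 CPM in Vehicle kidneys.

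In macrophages as gated, Ccl9 was lower in SH045 kidneys and was the 1 gene of the 7 called, where 10.1% of 12034 genes passed in either direction. Ccl9 was at 357, 372 and 230.1 CPM in SH045 macrophages and 389.9, 561 and 467 CPM in Vehicle macrophages, apart by a narrow gap (log2 change -0.73 ± 0.186, adjusted p = 0.0309). Without the Fn1-type subset its log2 change was -0.43 ± 0.133 (adjusted p = 0.0572), and without 5 of the 6 libraries in turn the call was lost (highest adjusted p 0.144). Ccl6 was at 708, 1315 and 563 CPM in SH045 macrophages and 1877, 2457 and 2070.3 CPM in Vehicle macrophages. Its groups stood wide apart, with SH045 kidney 2 nearest to Vehicle, and the log2 change of -1.46 ± 0.372 had an adjusted p of 0.0676. DESeq2 called both Ccl6 and Ccl9 in macrophages, where 10% of genes passed.

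Ccl6 passed once the Fn1-type subset was taken out. In macrophages outside it Ccl6 was at 447, 823 and 452 CPM in SH045 kidneys and 1116, 1174 and 1119 CPM in Vehicle kidneys, a log2 change of -1.12 ± 0.256 (adjusted p = 0.0349), where 7.15% of 11770 genes passed. Removing the length trend moved this to -0.91 with an adjusted p of 0.0809, and leaving out SH045 1, SH045 3 or any Vehicle library ended the call (highest adjusted p 0.190). Resident-type macrophages, which carried at least 3 of 8 markers such as Lyve1 and Folr2, had 479 ± 211 CPM of Ccl6 in SH045 kidneys and 766 ± 66.9 CPM in Vehicle kidneys (adjusted p = 0.257). The share of macrophages with a UMI of Ccl6, each cell thinned to 2000 UMIs, was 50.2 ± 5.23% in SH045 kidneys and 59.0 ± 2.93% in Vehicle kidneys. Unthinned it was 63.9% and 72.5% in SH045 and Vehicle kidneys (exact two-sided permutation p = 0.1 for the thinned share, the smallest that 3 against 3 allows). Tubule cells, which should lack the gene, had 1.05 ± 0.341% and 4.17 ± 1.28% when thinned in SH045 and Vehicle kidneys, with median depths of 6230 and 6752 UMIs against 3316 and 3677 UMIs in macrophages.

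Ccl3 and Ccl4 in macrophages differed more between kidneys of a group than between groups. Ccl4 was at 508, 402 and 210.2 CPM in SH045 macrophages and 434, 815 and 349 CPM in Vehicle macrophages, overlapping (log2 change -0.69 ± 0.486, adjusted p = 0.436). Ccl3 ranged from 86.6 to 333 CPM in SH045 macrophages and from 164 to 353 CPM in Vehicle macrophages (adjusted p = 0.664). A list of 14 immediate early and stress genes, known to rise in cells during tissue digestion, summed to 2183 to 7201 CPM in SH045 macrophages and 3065 to 6797 CPM in Vehicle macrophages, with its highest SH045 and highest Vehicle library the same as for Ccl3 and Ccl4. The sum of 16 NF-kappaB response genes had the same highest libraries, at 813.5 to 1636 CPM in SH045 macrophages and 880.5 to 1366 CPM in Vehicle macrophages. The part of either list in their spread was not tested.

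The receptor gene Ccr1 was higher with SH045 in Fn1-type cells. It was at 203, 139 and 236 CPM in SH045 kidneys, against 102, 71.2 and 71.4 CPM in Vehicle kidneys. The groups stood apart, with a log2 change of 1.05 ± 0.208 (adjusted p = 0.0196), and Ccr1 was the 1 gene of the 7 that edgeR called there, where 2.22% of 7423 genes passed. DESeq2 called 2 of the 7, Ccr1 and Ccl6, where 2.86% passed. Leaving out SH045 1, SH045 3, Vehicle 2 or Vehicle 3 took the adjusted p to 0.0526, 0.0724, 0.0932 and 0.136, with log2 changes of 0.87 to 1.02. In other macrophages Ccr1 was at 99, 71.4 and 119 CPM in SH045 kidneys and 99.5, 91.8 and 76.9 CPM in Vehicle kidneys, which overlapped (log2 change -0.05 ± 0.167).

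The effect on Ccr1 itself differed between the sets of cells: a model with each library as a block gave a difference of log2 changes of 1.02 ± 0.162, Fn1-type minus other macrophages (adjusted p = 0.00107, where 0.91% of 10992 genes passed). It stayed below 0.05 without any 1 library, with adjusted p values up to 0.0313. Thinned to 2000 UMIs, 26.4 ± 5.21% of Fn1-type cells had a UMI of Ccr1 in SH045 kidneys and 13.6 ± 1.91% in Vehicle kidneys, 48.3% and 31.3% unthinned. In tubule cells the thinned shares were 0.264 ± 0.116% and 0.327 ± 0.126% in SH045 and Vehicle kidneys. C1qa moved with Ccr1 in this subset, at 2113, 1242 and 1998 CPM in SH045 kidneys and 850.3, 1010.2 and 872 CPM in Vehicle kidneys, and Lyz2, the lysozyme gene, was at 11816 to 18586 CPM in SH045 kidneys and 18856 to 20316 CPM in Vehicle kidneys. The subset had 241 cells in SH045 kidneys and 740 in Vehicle kidneys, and the part of its makeup in the Ccr1 difference was not tested.

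Ccl6 in Fn1-type cells was at 3032, 5598 and 2753 CPM in SH045 kidneys and 7098, 7454 and 6521 CPM in Vehicle kidneys. All SH045 values lay lower, SH045 kidney 2 nearest to Vehicle, and the log2 change of -1.06 ± 0.288 did not pass with edgeR (adjusted p = 0.108). Without SH045 2 it was -1.53 with an adjusted p of 4.59e-05, and without any other 1 library it did not pass (adjusted p up to 0.332). It passed with DESeq2 (adjusted p = 0.00402, where 2.86% of genes passed). With no low-count filter it also passed (adjusted p = 2.55e-08), a setting for which no share of all genes passing is given here. Ccl9 was at 1045, 1339.9 and 683 CPM in SH045 kidneys and 1252, 1498 and 1322 CPM in Vehicle kidneys, which overlapped (log2 change -0.59 ± 0.214, adjusted p = 0.154). The change of Ccl6 in Fn1-type cells minus that in other macrophages was -0.03 ± 0.0843 (adjusted p = 0.942), and that of Ccl9 was -0.29 ± 0.127 (adjusted p = 0.420).

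**Figure D4:**
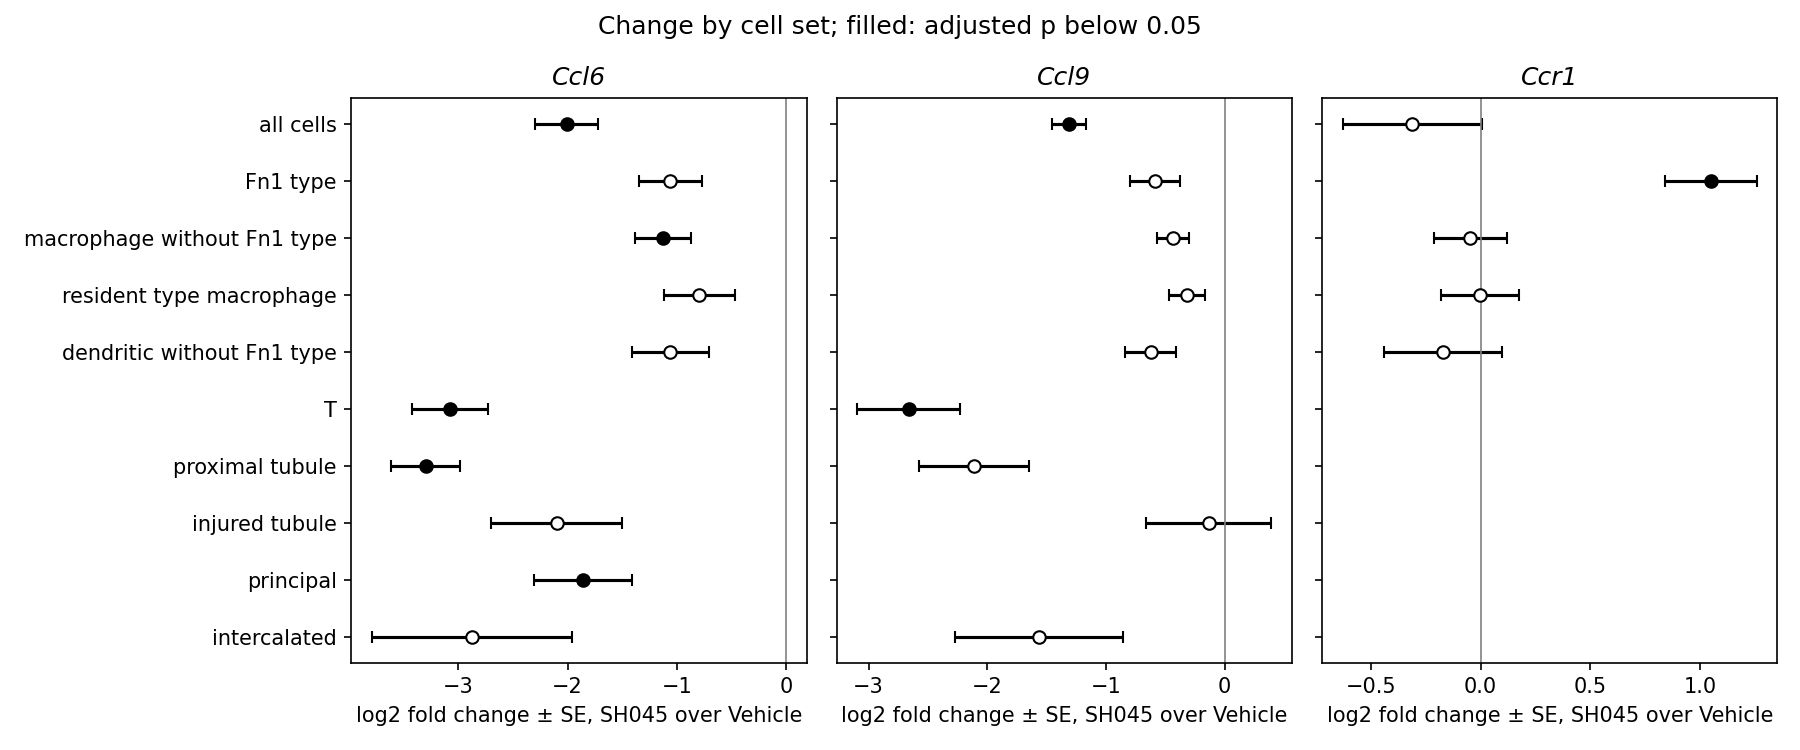
Points are log2 fold changes, SH045 over Vehicle, with their standard errors, for Ccl6, Ccl9 and Ccr1 in sets of cells where the gene was tested, filled where the adjusted p is below 0.05. Ccl6 and Ccl9 lie left of 0 in every set drawn, and Ccr1 lies at 1.05 in Fn1-type cells and near 0 in other macrophages.

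Among dendritic cells none of the 7 genes passed with edgeR, where 0.345% of 9558 genes did. With edgeR 4 of the 7 had an unadjusted p below 0.05, as did 17.5% of all genes, and DESeq2 called 3, where 1.5% of genes passed. Ccl6 was at 713, 1276 and 561 CPM in SH045 dendritic cells and 2373, 2256 and 2047 CPM in Vehicle dendritic cells. The groups stood apart (log2 change -1.50 ± 0.295, adjusted p = 0.0804). Ccl9 was at 311, 466 and 239.9 CPM in SH045 dendritic cells and 616, 609 and 554 CPM in Vehicle dendritic cells, apart as well (-0.92 ± 0.210, adjusted p = 0.0804). Without Fn1-type cells of the cDC2 gate the changes were -1.06 ± 0.353 for Ccl6 and -0.62 ± 0.217 for Ccl9. These sums pool unlike classes: Ccl6 averaged 2733 ± 1065 CPM in the cDC2 gate and 110 ± 27.3 CPM in cDC1. The cDC2 gate held 292 of 732 dendritic cells in SH045 kidneys and 985 of 1756 in Vehicle kidneys. In that gate without Fn1-type cells, edgeR gave neither Ccl6 nor Ccl9 an unadjusted p below 0.05. The part of the mix of classes in the pooled changes was not tested.

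Ccl17 was lower in the sum of all kept cells, while its values overlapped between the groups within the cells that carried most of it. In cells of the cDC2 gate it was at 490.1, 1260.2 and 2057 CPM in SH045 kidneys and 1617, 1152 and 936 CPM in Vehicle kidneys, the Vehicle values lying within the SH045 range (log2 change -0.04 ± 0.623, adjusted p = 0.984). The share of these cells with a UMI of Ccl17, thinned to 2000 UMIs, was 30.5 ± 3.70% in SH045 kidneys and 32.4 ± 3.68% in Vehicle kidneys (exact permutation p = 0.6), 39.2% and 40.5% unthinned. Tubule cells had 0.329 ± 0.0171% and 0.579 ± 0.121% in SH045 and Vehicle kidneys. Cells of the cDC2 gate were 2.61 ± 0.670% of all cells in SH045 kidneys and 7.86 ± 1.17% in Vehicle kidneys (exact permutation p = 0.1, the smallest possible). Migratory dendritic cells, too few for a test, had 1827, 879 and 2096 CPM of Ccl17 in SH045 kidneys and 1125, 899 and 962 CPM in Vehicle kidneys, overlapping ranges.

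Ccl5 in dendritic cells outside the Fn1-type subset was at 642, 829 and 373 CPM in SH045 kidneys and 1219, 947 and 1077 CPM in Vehicle kidneys. The groups stood apart, and the log2 change of -0.93 ± 0.248 did not pass (adjusted p = 0.201). In macrophages outside the subset Ccl5 was at 510.3, 491 and 299 CPM in SH045 kidneys and 377, 320.4 and 494 CPM in Vehicle kidneys, which overlapped. The difference between the log2 changes, dendritic cells minus macrophages, was -0.96 ± 0.140 (adjusted p = 0.0212, where 0.147% of 11528 genes passed), and without SH045 3 the adjusted p was 0.124. Migratory dendritic cells were the richest dendritic source of Ccl5, with 4481 to 7871 CPM in SH045 kidneys and 5948 to 11684 CPM in Vehicle kidneys. They were 0.616 ± 0.249% and 1.33 ± 0.176% of all cells in SH045 and Vehicle kidneys. Among the dendritic cells outside the Fn1-type subset they were 68 of 696 in SH045 kidneys and 167 of 1546 in Vehicle kidneys. By library they were 27 of 201, 29 of 291 and 12 of 204 in SH045 1 to 3. In Vehicle 1 to 3 they were 49 of 503, 65 of 501 and 53 of 542. The part of this mix in the Ccl5 difference was not tested.

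In T cells Ccl5, known as a product of memory and effector T cells, was at 2319.9, 4064 and 5153 CPM in SH045 kidneys and 3807, 1428 and 6303 CPM in Vehicle kidneys. The SH045 values lay within the Vehicle range (log2 change 0.02 ± 0.667, adjusted p = 0.996). T cells with Cd8a or Cd8b1 had 7103 ± 3059 CPM in SH045 kidneys and 4480.4 ± 2040.2 CPM in Vehicle kidneys (adjusted p = 0.764). NK cells numbered 17 to 58 per SH045 library and 4 to 9 per Vehicle library, too few for a test. Their Ccl3 was at 428, 669 and 246 CPM in SH045 kidneys and 55.7, 0 and 111 CPM in Vehicle kidneys, groups that stood apart, and their Ccl5 at 10938, 7546 and 22086 CPM in SH045 kidneys and 15744, 8846 and 6517 CPM in Vehicle kidneys, which overlapped.

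Of 5 members tested in T cells, Ccl6 and Ccl9 were called lower, where 0.418% of 6695 genes passed and 0.269% were lower. Both passed the low-count filter through the Vehicle libraries, where they were higher, so the count stands as a description. Ccl6 was at 23.1, 21.0 and 11.7 CPM in SH045 T cells and 78.3, 188 and 204 CPM in Vehicle T cells, apart, with a log2 change of -3.08 ± 0.347 (adjusted p = 0.00106). Ccl9 was at 12, 1.62 and 4.40 CPM in SH045 T cells and 39.1, 47.0 and 44.7 CPM in Vehicle T cells, also apart (-2.66 ± 0.434, adjusted p = 0.00470).

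Few cells carried these T-cell counts. A UMI of Ccl6 was seen in 26 of 563 T cells in SH045 kidneys and 58 of 384 in Vehicle kidneys, and 45.7% and 82.6% of the UMIs lay in T-gated cells with at least 3 macrophage markers detected. Lyz2 in T cells stood at 1.68 ± 0.646% of its macrophage level in SH045 kidneys and 5.72 ± 2.23% in Vehicle kidneys, beside 2.32 ± 0.859% and 7.23 ± 2.87% for Ccl6 in SH045 and Vehicle kidneys. For C1qa these shares were 2.03 ± 1.08% in SH045 kidneys and 3.45 ± 2.29% in Vehicle kidneys, with ranges that overlapped. For Cd74, also measured, they were 3.51 ± 2.46% in SH045 kidneys and 7.62 ± 1.905% in Vehicle kidneys, overlapping as well. With the highest doublet scores left out the log2 change of Ccl6 was -3.29 with an adjusted p of 0.449, and with T cells taken from clusters it was -1.19 with an adjusted p of 0.203. Ccl9 was not tested in either of these, as it did not pass the low-count filter. A UMI of Ccl9 was seen in 12 of 563 T cells in SH045 kidneys and 24 of 384 in Vehicle kidneys. Of these Ccl9 UMIs, 23.5% in SH045 kidneys and 72.7% in Vehicle kidneys lay in T-gated cells with at least 3 macrophage markers, and 47.1% and 45.5% in SH045 and Vehicle kidneys lay in cells with high doublet scores. The log2 change of Ccl9 in T cells minus that in macrophages was -1.93 ± 0.360 (adjusted p = 0.0227, where 0.0787% of 11438 genes passed), and the call ended without SH045 2 or any 1 Vehicle library (adjusted p 0.0899 to 0.161).

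In tubule cells Ccl6 was the 1 of 7 genes called, where 0.0647% of 13914 genes passed, at 5.99, 7.39 and 3.25 CPM in SH045 tubule cells and 44.1, 38.7 and 51.1 CPM in Vehicle tubule cells. The groups stood far apart (log2 change -3.07 ± 0.262, adjusted p = 0.0267). In proximal tubule cells the change was -3.30 ± 0.315 (adjusted p = 0.00313, where 0.0917% of 10900 genes passed). The tubule level was 0.662 ± 0.160% of the macrophage level in SH045 kidneys and 2.13 ± 0.486% in Vehicle kidneys. For Lyz2 the same shares were 0.608 ± 0.0484% and 1.39 ± 0.222% in SH045 and Vehicle kidneys, and for C1qa 0.736 ± 0.0302% and 1.19 ± 0.168%. For Cd74 they were 2.675 ± 0.112% in SH045 kidneys and 3.39 ± 0.433% in Vehicle kidneys. In proximal tubule cells the Cd74 shares went the other way, 6.01 ± 0.392% in SH045 kidneys and 4.95 ± 0.774% in Vehicle kidneys. Of the tubule UMIs of Ccl6, 26.6% in SH045 kidneys and 71.8% in Vehicle kidneys lay in cells with at least 3 macrophage markers detected. With the highest doublet scores left out the change was -2.79 (adjusted p = 0.133), without SH045 1 the adjusted p was 0.187, and without Vehicle 2 it was 0.0506. DESeq2 called Ccl6 and Ccl9 in tubule cells, where 2.27% of genes passed. The log2 change of Ccl6 in tubule cells minus that in macrophages was -1.58 ± 0.209 (adjusted p = 0.0184, where 0.21% of 14746 genes passed), with an adjusted p of 0.0689 without SH045 2 and 0.106 without SH045 3. The part of macrophage transcripts in the tubule and T-cell values was not tested beyond these measurements.

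Injured tubule cells, marked by Havcr1 and Krt20, also held UMIs of Ccl5 and Ccl9. Ccl5 was at 219.6, 588 and 421 CPM in SH045 kidneys and 201, 248 and 515 CPM in Vehicle kidneys, overlapping (log2 change 0.27 ± 0.570, adjusted p = 0.827). Ccl9 was at 43.9, 47.4 and 32.4 CPM in SH045 kidneys and 11.3, 49.0 and 58.5 CPM in Vehicle kidneys, overlapping too (-0.13 ± 0.528, adjusted p = 0.911). In the same cells Ccl6, the myeloid gene, was at 6.19 ± 3.88 CPM in SH045 kidneys and 24.9 ± 15.9 CPM in Vehicle kidneys.

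Other genes of the family were read from lists. Of 15 other CC chemokine genes 12 were tested in all kept cells, 1 was higher and 2 were lower in SH045 kidneys, with a median log2 change of -0.80 against 0.01 over all genes tested. Ccl2, whose product draws monocytes through CCR2, was at 77.9, 73.8 and 94.6 CPM in SH045 kidneys and 169.6, 178 and 164 CPM in Vehicle kidneys, apart, with a log2 change of -1.29 ± 0.135 (adjusted p = 0.00720). Ccl22 changed by -0.94 ± 0.148 (adjusted p = 0.0193), while Ccl11, the eotaxin gene of fibroblasts, was at 9.94 ± 6.10 CPM in SH045 kidneys and 0.174 ± 0.210 CPM in Vehicle kidneys (adjusted p = 0.0222). Fibroblasts were 3.39 ± 0.788% of cells in SH045 kidneys and 0.637 ± 0.0748% in Vehicle kidneys (exact two-sided permutation p = 0.1, the smallest possible), and their part in the Ccl11 sum was not tested. In macrophages 2 of 8 tested were lower, Ccl2 (-1.12 ± 0.165, adjusted p = 0.00462) and Ccl7 (-0.88 ± 0.183, adjusted p = 0.0153), and in Fn1-type cells 1 of 6, Ccl2 (-0.76 ± 0.182, adjusted p = 0.0396). Of all genes tested, 4.31% passed in either direction in all kept cells, 10.1% in macrophages and 2.22% in Fn1-type cells.

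Of 14 CC and atypical chemokine receptor genes, 8 were tested in all kept cells and 3 each in macrophages and Fn1-type cells, and none passed there with edgeR. An unadjusted p below 0.05 was found for 5, 1 and 0 of them, beside 26.7% of all genes in all kept cells, 27.9% in macrophages and 19.6% in Fn1-type cells. Ccr2, the receptor gene of inflammatory monocytes, had a log2 change of -0.55 ± 0.193 in all kept cells (adjusted p = 0.127) and 0.02 ± 0.156 in macrophages (adjusted p = 0.948). Of 16 NF-kappaB response genes, 15 were tested in macrophages and Cd83 was lower (log2 change -0.62 ± 0.139, adjusted p = 0.0149), and 14 were tested in Fn1-type cells and Tnfaip2 was higher (log2 change 1.68 ± 0.333, adjusted p = 0.0285). Cd83 was also lower in all kept cells (-1.03 ± 0.138, adjusted p = 0.0117). Beside these calls, 10.1% of all genes passed in macrophages, 2.22% in Fn1-type cells and 4.31% in all kept cells. Of the 14 immediate early genes Egr2 was lower in all kept cells (-1.51 ± 0.183, adjusted p = 0.00862), where the list's median log2 change was -0.49 and 5 had an unadjusted p below 0.05, and none passed with edgeR in macrophages or Fn1-type cells (1 each with an unadjusted p below 0.05), with median log2 changes of -0.40 and 0.07.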

How the data were processed

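Single cells of 6 kidneys were captured on Singleron GEXSCOPE chips with oligo-dT barcoded beads, per the labels' protocols, with 6000 cells targeted per library. The authors deposited raw UMI counts per gene and barcode. The build was mm10, per the submitters' processing notes, and no source used here names the aligner, annotation, strand setting or cell-calling rule. The lowest total of any barcode was 2166 to 3175 UMIs by library.

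Barcodes with at least 200 genes and at most 50% mitochondrial UMIs were kept. Each cell took the class with the highest mean of its scaled markers, with at least 3 markers detected. Cells with high Scrublet scores were kept, and an alternative left out the top 5% of each library (1178 cells). Scanpy 1.11.5 clusters made without CC chemokine genes gave 29 clusters, and 88.0% of gated cells had the class of their cluster. UMIs were summed per library and class, and classes with at least 20 cells in every library were tested with edgeR 4.0.16 (TMM, filterByExpr, robust quasi-likelihood, Benjamini-Hochberg over all genes of the class). NK cells, migratory dendritic cells and monocytes had too few (as few as 4, 12 and 16 cells in a library). The effect of SH045 was also compared between sets of cells in a model with the library as a block, over 6 pairs of sets. DESeq2 1.42.0 was an alternative. Scripts were tested on simulated data. Thinned shares are expected detection at 2000 UMIs, and no cell was shallower. The design text gives 3 mice per group and 1 obstructed kidney from each, so a library was taken as 1 mouse. Values of single classes with few UMIs carry counting error beside the spread given.

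The 7 genes and the gene lists were chosen with earlier results of these data known, and the gate, the Fn1-type definition and the comparison between sets of cells were settled after the data were seen. Named genes are the 7 members, list genes that passed, Ccl2 and Ccr2, and for each member the 3 genes closest over classes with at least 20 cells. Bcl11b and Ccl26 were not used here, and results for some genes under this rule are not reported here.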

Additional observations from a re-analysis of the deposited data

Results flagged for a closer look

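Each value here is a difference between the effects of SH045 in different sets of cells of the same kidneys, from edgeR with the library as a block, with p adjusted over all genes tested. For Ccr1 the log2 change in Fn1-type cells was 1.02 above that in other macrophages (adjusted p = 0.00107), and 0.954 to 1.13 when any 1 library was left out. For Ccl5 the change in dendritic cells was lower than that in macrophages, both outside the Fn1-type subset, by a log2 difference of -0.965 (adjusted p = 0.0212, and 0.124 without SH045 3). For Ccl9 the change in T cells minus that in macrophages was -1.93 (adjusted p = 0.0227), and without SH045 2 or any 1 Vehicle library the adjusted p was 0.0899 to 0.161. Ccl9 was seen in 12 T cells in SH045 kidneys and 24 in Vehicle kidneys, with 23.5% and 72.7% of its UMIs in SH045 and Vehicle kidneys in cells with at least 3 macrophage markers. Those T cells held 17 UMIs of Ccl9 in SH045 kidneys and 88 in Vehicle kidneys. In the T-cell fit Ccl9 passed the low-count filter through the Vehicle libraries, so its difference stands as a description. For Ccl6 the change in tubule cells minus that in macrophages was -1.58 (adjusted p = 0.0184), and 0.0689 without SH045 2 and 0.106 without SH045 3.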

How the results depend on the processing

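Over 23 named results on single genes, 267 recomputed values kept their sign, and of 163 for called results 106 stayed past 0.05 and 57 did not. Ccl9 in all kept cells stayed called in each, and Ccl6 in all but 1 (without Vehicle 1, adjusted p = 0.0517). Settings in which a gene did not pass the low-count filter are in none of these counts, as for Ccl9 in T cells. The 23 results are a chosen set, not all described above. They include Ccl6 and Ccl9 in T cells, which passed the filter through the Vehicle libraries. Leaving out 1 library gave 1 to 2 members called in all kept cells (4 with all), 0 to 3 in macrophages (1), 0 to 3 in dendritic cells (0) and 0 to 2 in tubule cells (1). Removing the length trend gave 2 in all kept cells and 0 in macrophages. DESeq2 gave 5 in all kept cells (Ccl3 added), 2 in macrophages, 3 in dendritic cells and 2 in tubule cells. With no low-count filter these were 2 in macrophages, 4 in dendritic cells and 2 in tubule cells. Beside the main counts in brackets, a share of all genes passing is given in this report for DESeq2 alone. The counts of every other setting in this section therefore stand as a description. The common UMI minimum of 3175 gave 0 in macrophages and 1 in dendritic cells. The stricter gate gave 0 in macrophages and 0 in tubule cells. Leaving out the highest doublet scores or taking classes from clusters gave 0 in T cells (2, of which Ccl6 was tested again and Ccl9 was not) and 0 in tubule cells. In Fn1-type cells (1), leaving out 1 library gave 0 to 3, DESeq2 gave 2, no low-count filter 3 and the replicate block 2. The causes were not tested. The alternatives for NK cells were not run, since the class was too small. Same-numbered libraries correlated at 0.0272, 0.0899 and 0.262, and not every library correlated best with its own number. No source used here says that the numbers pair the mice, and so few libraries cannot settle it. With the replicate number as a block, 3 members were called in macrophages, 1 in dendritic cells, 0 in tubule cells, and 4 in all kept cells. The Fn1-type alternatives and dendritic cells without that subset were chosen after seeing the data.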
